A study of Homo sapiens with 6 samples.

Results

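The aminoacyl-tRNA synthetases are the enzymes that load each tRNA with its amino acid. They were taken here as the genes whose symbol is 1 amino acid letter followed by ARS, with an optional final 1 or 2, together with EPRS1, the phenylalanine genes FARSA, FARSB and FARS2, and the scaffold proteins AIMP1, AIMP2 and EEF1E1. The rule uses names and no measured value, and 38 of the 28278 genes in the count files chosen by it are described. Of these, 19 encode cytosolic synthetases, 16 (symbols ending in 2) encode mitochondrial synthetases and 3 encode scaffold proteins. All 38 had enough counts to be tested, and the lowest count of any of them in any library was 330, for PARS2.

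RNA-Seq was performed on HT29 cells, a human colorectal adenocarcinoma line, 48 h after transfection with siRNA against the glycolytic enzyme ALDOA (siALDOA) or with scrambled siRNA (siControl). The labels give 3 biological replicates of each, and no genetic change other than the knockdown. The libraries held 27277538 to 33237914 counts on genes. The counts were scaled by TMM normalization and given as CPM, a gene's count relative to the library total, and siALDOA was compared with siControl by edgeR's quasi-likelihood test with Benjamini-Hochberg adjustment over 15307 genes.

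ALDOA itself was at 283, 305 and 280 CPM with siALDOA and at 592, 637 and 668 CPM with siControl, which is 45.7% of the control mean. Of 12 colon epithelial markers 11 were tested, and LGALS4 was listed at 0 in every library. Their summed level was 9480 to 9810 CPM with siALDOA and 10000 to 10600 CPM with siControl, with KRT18 lower (-0.28, adjusted p = 0.0152) and KRT19 higher (0.38, adjusted p = 0.000577), and its part in the results was not tested. Of 12 markers of blood, stroma and endothelium only COL1A1 and CD68 passed the filter, and the list summed to between 15.1 and 17.4 CPM in all 6 libraries. CD3E, TYROBP and COL1A2 were at 0. Ribosomal RNA genes took 7.71% to 13.1% of the counts with siALDOA and 8.15% to 17.4% with siControl. Since these are bulk RNA samples, fewer transcripts per cell and a changed mixture of cells cannot be told apart.

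A synthetase recognises 1 amino acid and its tRNAs and joins them at the cost of ATP, and the charged tRNA is then carried to the ribosome. Human cells keep largely separate nuclear genes for the cytosolic and the mitochondrial enzyme, but GARS1 and KARS1 each serve both compartments from a single gene, and mitochondria obtain glutaminyl-tRNA by another route. Several cytosolic enzymes assemble with AIMP1, AIMP2 and EEF1E1 into the multi-synthetase complex. Uncharged tRNA activates the kinase GCN2 (EIF2AK4), which raises translation of the transcription factor ATF4. ATF4 with a C/EBP partner binds a composite DNA element called CARE, and many cytosolic synthetase genes are known ATF4 targets.

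The promoter stretches around CARE matches are shown because most of the cytosolic genes that fell with siALDOA and were in the promoter table held one. The letters searched were TGATGNAA on both strands, in the 300 bases from 250 before to 50 after each gene start in RefSeq (GRCh38.p14). This table held 33 of the 38 members, and LARS1, VARS1, YARS1, AARS2 and VARS2 were not in it. Each stretch of 30 bases is written 5′ to 3′ on the strand of its gene, with the matched letters in capitals. The first 6 belong to genes whose mRNA was lower with siALDOA, and AARS1 and YARS2 did not pass the test.
IARS1: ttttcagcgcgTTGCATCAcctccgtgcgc
NARS1: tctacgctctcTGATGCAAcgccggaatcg
MARS1: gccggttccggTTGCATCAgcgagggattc
GARS1: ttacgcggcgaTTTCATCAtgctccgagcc
CARS1: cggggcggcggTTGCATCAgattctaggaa
TARS1: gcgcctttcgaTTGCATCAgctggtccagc
AARS1: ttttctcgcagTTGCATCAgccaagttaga
YARS2: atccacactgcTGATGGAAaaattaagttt

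The stretches lie at chr9:92293692-92293721 (IARS1, minus strand), chr18:57621804-57621833 (NARS1, minus), chr12:57488053-57488082 (MARS1, plus) and chr7:30594834-30594863 (GARS1, plus). The others lie at chr11:3057407-3057436 (CARS1, minus), chr5:33440956-33440985 (TARS1, plus), chr16:70289675-70289704 (AARS1, minus) and chr12:32756076-32756105 (YARS2, minus). Of the 7 cytosolic matches 6 read TTGCATCA or TGATGCAA, its reverse complement, and that of GARS1 read TTTCATCA. The first matched base of the 6 lower genes fell close to the start of the gene, from position -33 in GARS1 to position 15 in NARS1. In AARS1 and YARS2 the first matched base lay farther upstream of the RefSeq start, at -187 and -197. The GENCODE spans include the stretches of all these genes but YARS2, also that of AARS1 (chr16:70251983-70289707). The contrast in position thus depends on the start used.

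A match was present in the promoters of 7 of the 16 cytosolic genes in the table, in 1 of 14 mitochondrial genes and in 0 of 3 scaffold genes. Over the whole table, 3.62% of 35116 promoters and 4.46% of 27305 genes held one. Among the cytosolic genes in the table, 6 of the 8 that were lower with siALDOA held a match, as did 1 of the 8 that did not pass the test. Neither MARS2 nor CARS2, the lower mitochondrial genes in the table, held one. WARS1 and EPRS1 were lower without a match. A match describes the letters in this window, and binding of ATF4 was not measured.

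**Figure D1:**
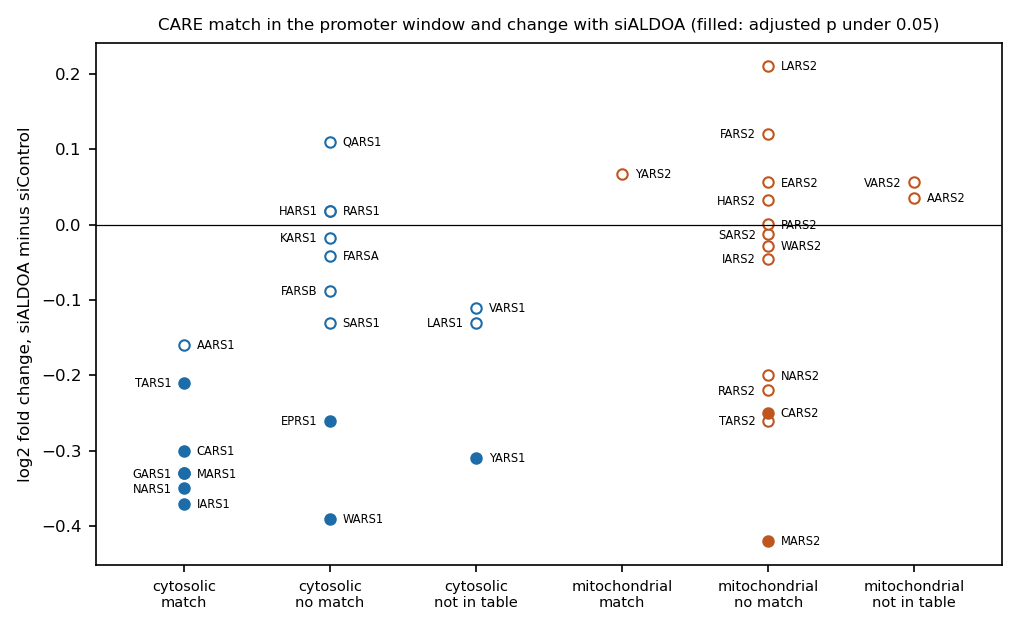
Log2 fold change of each synthetase gene (y axis, siALDOA minus siControl) by class and by whether its promoter window held a CARE match (x axis); filled points passed an adjusted p of 0.05. All 7 cytosolic genes with a match lie at -0.16 or lower, and the cytosolic genes without one range from -0.39 to 0.11.

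Levels were compared between genes per kilobase of transcript, as the mean CPM divided by the length of the MANE Select transcript of GENCODE 44. In siControl cells SARS1 was the highest, at 159 CPM per kilobase, followed by TARS1 at 117, GARS1 at 115 and MARS1 at 105. The median was 59.9 CPM per kilobase for the cytosolic genes, 9.18 for the mitochondrial genes and 22.8 for the scaffold genes. IARS2 was the highest mitochondrial gene, at 30 CPM per kilobase. FARSB, which encodes the beta subunit of the cytosolic phenylalanine enzyme, was the lowest of all at 4.09 CPM per kilobase on a transcript of 6761 bases, while its partner subunit FARSA was at 30.1 on 1811 bases.

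**Figure D2:**
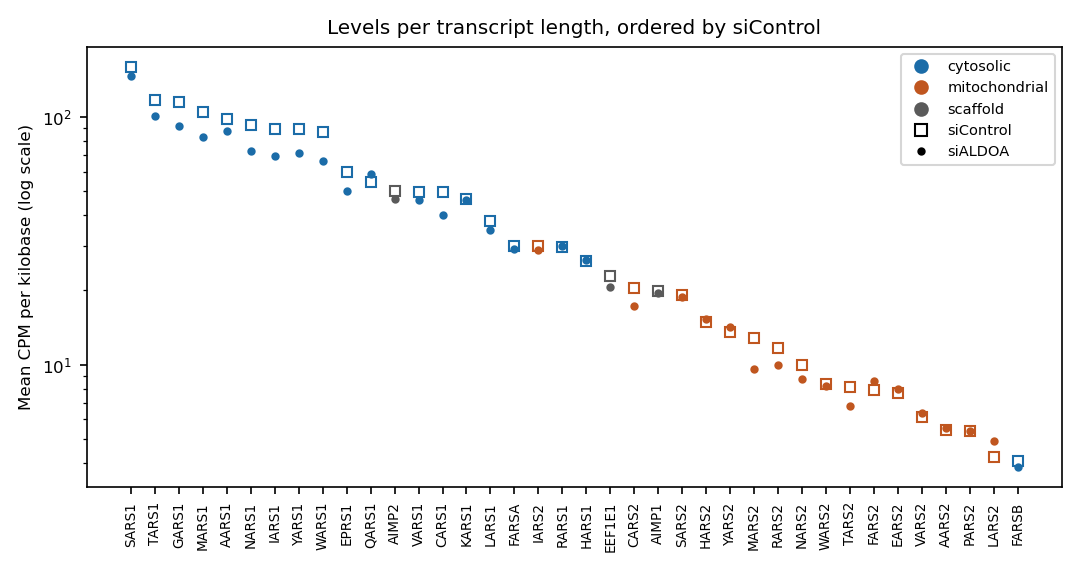
Mean CPM per kilobase of transcript (log axis) of the 38 genes, ordered by their siControl level; squares are siControl means, dots siALDOA means, and colours mark cytosolic, mitochondrial and scaffold genes. The series runs from SARS1 (159) to FARSB (4.09) in siControl cells, with cytosolic genes mostly at the left.

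With siALDOA, 9 of the 19 cytosolic genes fell and 0 rose, and 2 of the 16 mitochondrial genes fell and 0 rose. None of the 3 scaffold genes passed the test. Over all 15307 genes, 5.29% fell and 4.36% rose, so the share of lower genes was far above this background for the cytosolic genes (47.4%), while that of the mitochondrial genes (12.5%) rests on MARS2 and CARS2. At an unadjusted p under 0.05 the same edgeR test had 0 cytosolic genes, 1 mitochondrial gene (LARS2) and 0 scaffold genes higher, and 11, 5 and 0 lower, where 12.3% of all genes were lower and 11.3% higher at that threshold. limma-voom and DESeq2 also called 0 genes of any class higher.

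The median log2 fold change was -0.16 for the cytosolic genes and -0.0063 for the mitochondrial genes, against 0.0016 for all genes tested. Negative values were found for 16 of 19 cytosolic, 8 of 16 mitochondrial and 3 of 3 scaffold genes, and for 49.7% of all genes. With each library left out in turn, the mitochondrial median ranged from -0.061 to 0.023, and the difference of the medians was -0.058 without siALDOA replicate 1 against -0.15 with all libraries. Every siALDOA library lay below every siControl library for 11 cytosolic and 5 mitochondrial genes, where this held for 14.6% of all genes. The reverse held for QARS1, LARS2 and EARS2, and for 13.1% of all genes. EARS2 shares up to 203 exonic bases on the same strand with GGA2, which rose (0.22, adjusted p = 0.0288), so reads could have been counted on either gene, also in the ratios that use EARS2. The changes were small: no member fell below 74.8% of its control mean.

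The classes differ in level, and a test finds small changes more easily in abundant genes. At a mean of 100 CPM or more there were 14 cytosolic genes, of which 9 fell, against 11.7% of all genes at that level. From 10 to under 50 CPM there were 15 mitochondrial genes, of which 2 fell, against 5.41% of all genes there. The median standard error of the log2 fold change was 0.058 for the cytosolic and 0.089 for the mitochondrial genes. A change of the size seen in the cytosolic genes is thus closer to the error in the mitochondrial genes, and genes that did not pass are not shown to be unchanged. With scaling by library totals only, the median of all genes was 0.075, 279 genes fell and 896 rose in place of 810 and 668, and 5 cytosolic and 1 mitochondrial genes fell. The class medians were then -0.085 and 0.066, so the cytosolic median stayed below that of all genes and the mitochondrial median lay close to it.

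**Figure D3:**
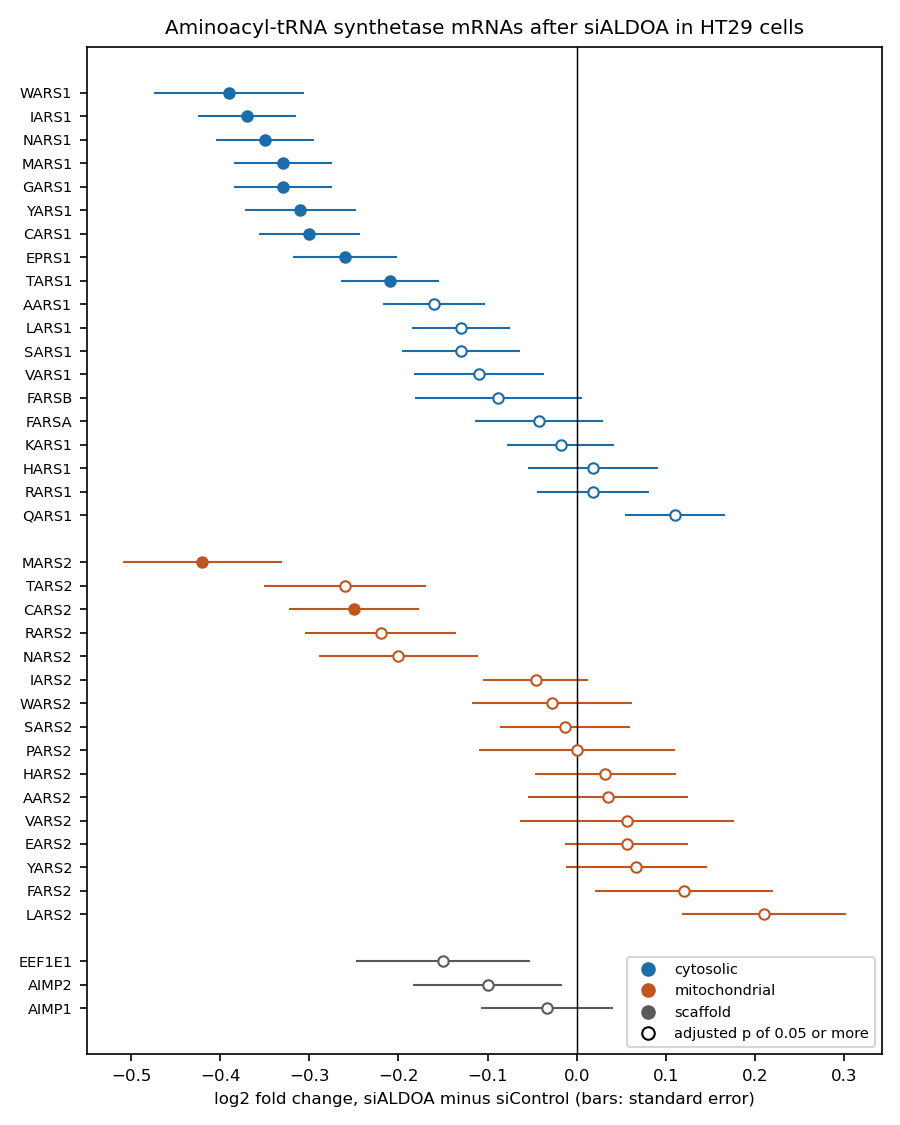
Log2 fold change (x axis, siALDOA minus siControl) with its standard error for the 38 genes, grouped as cytosolic, mitochondrial and scaffold and sorted within each group; filled points passed an adjusted p of 0.05. The 9 filled cytosolic points lie between -0.39 and -0.21 and the filled mitochondrial points at -0.42 and -0.25.

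The multi-synthetase complex holds 7 of the cytosolic enzymes described here, of which IARS1, MARS1 and EPRS1 fell. This is 42.9% of the 7, against 5.29% of all genes and 11.7% of those at 100 CPM or more. IARS1 (ENSG00000196305, chr9:92210207-92293854) loads isoleucine. It was at 309, 318 and 304 CPM with siALDOA and at 386, 418 and 399 CPM with siControl. The log2 fold change was -0.37 (SE 0.055, adjusted p = 0.000131), the smallest p of all 38 genes, and the groups were well apart.

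MARS1 (ENSG00000166986, chr12:57475445-57517569) loads methionine, also on the initiator tRNA that starts every cytosolic protein. Its levels were 231, 229 and 238 CPM with siALDOA against 280, 301 and 300 CPM with siControl (log2 fold change -0.33, SE 0.055, adjusted p = 0.000415). All siALDOA libraries were lower than any control. MARS1 shares up to 287 exonic bases with DDIT3 on the opposite strand. Whether the counting used strand was not given in the sources used here, and DDIT3, at 601 to 1011 counts against 6437 to 9871 for MARS1, also fell (-0.31, adjusted p = 0.0349).

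EPRS1 (ENSG00000136628, chr1:219968600-220046530) encodes a fused enzyme for both glutamate and proline. It measured 240, 247 and 242 CPM after siALDOA and 272, 310 and 292 CPM after siControl, with a log2 fold change of -0.26 (SE 0.058, adjusted p = 0.00592). The groups did not overlap, but without siControl replicate 2, its highest library, the adjusted p was 0.0561.

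The other 4 enzymes of the complex did not pass the test. LARS1, for leucine, had siALDOA values of 164, 169 and 165 CPM and siControl values of 176, 183 and 185 CPM (-0.13, adjusted p = 0.163). QARS1, for glutamine, was the only cytosolic gene whose siALDOA libraries were all higher, with 148, 141 and 143 CPM against 133, 132 and 134 CPM (0.11, SE 0.056, adjusted p = 0.223). KARS1, the lysine enzyme of both compartments, was level in all libraries, at 89.6, 92.5 and 93.3 CPM with siALDOA and 88.7, 96.0 and 94.1 CPM with siControl (-0.018, adjusted p = 0.894). RARS1, for arginine, had a log2 fold change of 0.018. Members of 1 complex thus spanned -0.37 to 0.11.

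The scaffold proteins hold the complex together. EEF1E1 was at 24.6, 19.7 and 20.5 CPM with siALDOA and 22.2, 25.6 and 24.0 CPM with siControl (-0.15, SE 0.098, adjusted p = 0.389). AIMP2 had 55.4, 54.8 and 58.0 CPM against 51.1, 69.0 and 60.2 CPM (-0.10, SE 0.084, adjusted p = 0.522). It shares up to 532 exonic bases on the opposite strand with EIF2AK1, which did not pass the test (-0.022). EIF2AK1 had 5413 to 6746 counts against 1543 to 2106 for AIMP2, and the strand setting was not given. For AIMP1 the values were 58.0, 54.8 and 48.9 CPM against 51.4, 58.0 and 56.1 CPM (-0.033, SE 0.074, adjusted p = 0.837). The groups overlapped for all 3. EEF1E1 shares exons with the readthrough gene EEF1E1-BLOC1S5 on the same strand, which fell (-0.34, adjusted p = 0.0193), and reads could have been counted on either.

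Outside the complex, 6 of 12 cytosolic genes fell, against 5.29% of all genes and 11.7% of those at 100 CPM or more. NARS1 (ENSG00000134440, chr18:57600656-57622213), for asparagine, was at 199, 202 and 200 CPM with siALDOA and 248, 266 and 254 CPM with siControl (log2 fold change -0.35, SE 0.055, adjusted p = 0.000193). GARS1 (ENSG00000106105, chr7:30580533-30634033), the glycine enzyme of both compartments, was at 219, 226 and 227 CPM against 269, 292 and 283 CPM (-0.33, SE 0.055, adjusted p = 0.000490). Within each group these libraries lay close together and far from the other group. GARS1 and KARS1 both supply mitochondria as well as the cytosol, and with siALDOA GARS1 was at 79.6% and KARS1 at 98.8% of the control mean, a difference that was not tested.

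CARS1 (ENSG00000110619, chr11:3000922-3057613), for cysteine, had 110, 106 and 114 CPM after siALDOA and 136, 134 and 137 CPM after siControl (-0.30, SE 0.057, adjusted p = 0.00162). YARS1 (ENSG00000134684, chr1:32775237-32818031), for tyrosine, had 164, 176 and 186 CPM against 205, 228 and 221 CPM (-0.31, SE 0.062, adjusted p = 0.00211). TARS1 (ENSG00000113407, chr5:33440696-33468091), for threonine, had 276, 270 and 262 CPM against 304, 322 and 308 CPM (-0.21, SE 0.055, adjusted p = 0.0171). None of the 3 had overlapping groups. TARS1 changed least and was the least secure of the 9: its adjusted p was 0.0613, 0.0798, 0.0971 and 0.0726 without siALDOA replicate 2, siALDOA replicate 3, siControl replicate 2 and siControl replicate 3.

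WARS1 (ENSG00000140105, chr14:100333790-100376805), for tryptophan, is known as an interferon-induced synthetase gene. Its levels were 148, 185 and 191 CPM with siALDOA and 202, 239 and 247 CPM with siControl, a log2 fold change of -0.39 (SE 0.084, adjusted p = 0.00445). Replicate 1 was the lowest library of both groups, and without siALDOA replicate 1 the value was -0.29. Of 16 interferon-response genes listed as a reference, 15 were tested and 14 rose, against 4.36% of all genes higher. GBP2 did not pass the test (-0.02), and IDO1 had too few counts to be tested. The list had a median log2 fold change of 1.23, so WARS1 and this list moved in opposite directions. The stretch of the WARS1 promoter that holds the core of an interferon-stimulated response element, ISRE (GAAA, any 2 bases, GAAA), is shown with the core in capitals, at chr14:100375383-100375412 on the minus strand. The first base of the core is at position -55 relative to the RefSeq start, and 3.57% of all promoters hold this core on either strand. Among the members in the table it was present in 1 of 16 cytosolic genes, 1 of 14 mitochondrial genes (EARS2, which did not pass the test) and 0 of 3 scaffold genes.
WARS1: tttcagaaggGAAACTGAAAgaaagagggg

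The remaining cytosolic genes outside the complex did not pass the test. AARS1, for alanine, carried a CARE match and came nearest, with 283, 310 and 310 CPM after siALDOA and 323, 344 and 341 CPM after siControl (-0.16, SE 0.057, adjusted p = 0.0870). Its groups did not overlap, and DESeq2 gave an adjusted p of 0.0352. SARS1 (serine) and VARS1 (valine) had log2 fold changes of -0.13 and -0.11, and FARSB, FARSA and HARS1 (histidine) had -0.088, -0.042 and 0.018, all with overlapping groups. Synthetases fall into catalytic classes I and II by the fold of their active site. Of the cytosolic genes, 6 of 10 in class I and 3 of 9 in class II fell, with medians of -0.28 and -0.13. Over all genes 5.29% fell, and 11.7% of those at 100 CPM or more. EPRS1 was counted in class I for its glutamate enzyme, although its proline enzyme is of class II, and the difference between the classes was not tested.

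Among the mitochondrial genes, MARS2 (ENSG00000247626, chr2:197705369-197708395), which loads methionine on the mitochondrial tRNA, fell most. It was at 25.5, 29.5 and 31.9 CPM with siALDOA and at 40.5, 40.8 and 35.0 CPM with siControl (log2 fold change -0.42, SE 0.089, adjusted p = 0.00410). The groups did not overlap.

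CARS2 (ENSG00000134905, chr13:110641412-110713603), for cysteine, was at 31.2, 32.2 and 31.3 CPM after siALDOA and at 36.8, 39.0 and 36.6 CPM after siControl (-0.25, SE 0.073, adjusted p = 0.0359). It was near the threshold although its groups did not overlap. CARS2 lost its call whichever of the 6 libraries was left out, with adjusted p from 0.0562 to 0.149. CARS2 shares up to 334 exonic bases with ING1 on the opposite strand, which did not pass the test.

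Next in order of p were TARS2, RARS2, LARS2 and NARS2. TARS2, for threonine, was at 18.9, 18.4 and 18.2 CPM with siALDOA and 21.1, 21.4 and 24.0 CPM with siControl (-0.26, SE 0.091, adjusted p = 0.0792). RARS2, for arginine, was at 22.6, 23.4 and 21.4 CPM against 25.0, 27.5 and 25.9 CPM (-0.22, SE 0.085, adjusted p = 0.115). Each siALDOA library of these genes was below each control, and the same was true of NARS2, for asparagine (-0.20, adjusted p = 0.174). LARS2, for leucine, was at 25.2, 23.8 and 21.8 CPM against 18.9, 20.5 and 21.6 CPM and had the highest log2 fold change of all 38 genes (0.21, SE 0.092, adjusted p = 0.159). Its groups were separated by less than the spread within either. The other 10 mitochondrial genes had log2 fold changes from -0.046 (IARS2) to 0.12 (FARS2) and adjusted p of 0.552 or more.

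**Figure D4:**
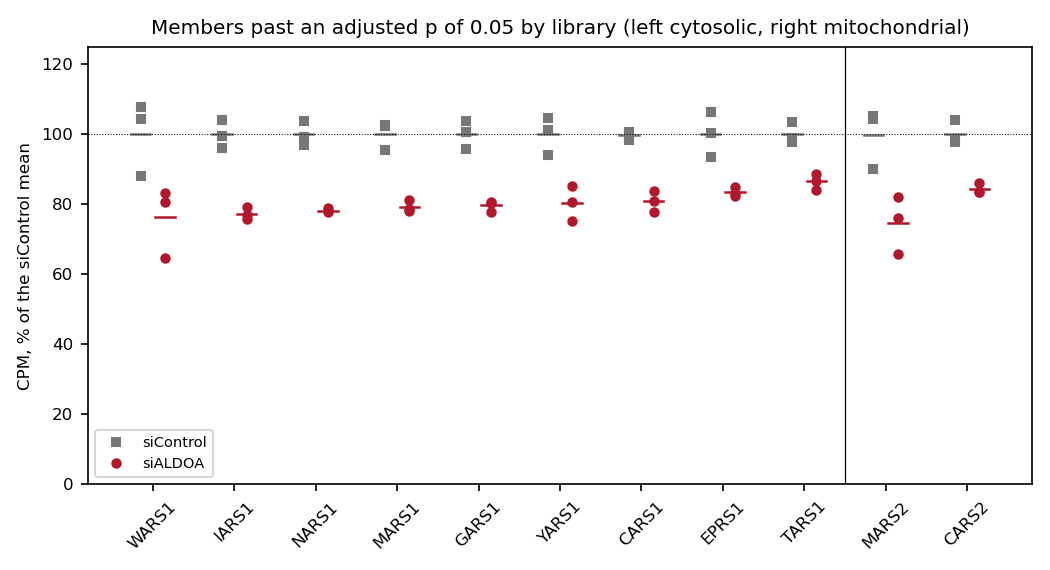
CPM of the 11 genes past an adjusted p of 0.05 in each library, as a percentage of the gene's siControl mean (y axis); squares are siControl libraries, circles siALDOA libraries, short lines group means, and the vertical line separates cytosolic from mitochondrial genes. No gene's groups overlap, and the siALDOA means lie between 74.8% and 86.5%.

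The cytosolic and the mitochondrial gene of the same amino acid were then compared within each library, as the ratio of their counts, which does not depend on how libraries are scaled. There were 17 such pairs for 16 amino acids. With 3 libraries against 3, an exact permutation test, two-sided, cannot give a p below 0.1, so the ratios are given as values. The ratio was lower in every siALDOA library than in every siControl library for 7 pairs and higher for 1, and it overlapped for 9. These pairs are not all separate, since EPRS1 enters 2 of the 7 and FARS2 enters 2, and no share over other pairs of genes was computed. The cytosolic gene had the lower log2 fold change in 14 of 17 pairs, with a median difference of -0.17.

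YARS1 stood at 5.80, 5.86 and 5.87 times the count of YARS2 with siALDOA and at 7.12, 8.08 and 7.63 times with siControl. YARS2 had a log2 fold change of 0.067. For IARS1 and IARS2 the ratio was 2.89, 3.12 and 3.06 against 3.68, 3.82 and 3.86, and EPRS1 to EARS2 gave 5.79, 5.97 and 5.82 against 7.03, 7.51 and 7.34. In these 3 pairs the balance moved from the cytosolic towards the mitochondrial gene in every library. The groups were also apart for EPRS1 to PARS2 and for LARS1 to LARS2, the latter with 6.51, 7.11 and 7.58 against 9.31, 8.92 and 8.58. For FARSB and FARSA against FARS2 they were apart by narrow margins, with siALDOA ratios of up to 1.82 against 1.84 or more, and of up to 3.78 against 3.79 or more.

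Methionine and cysteine were the amino acids for which both genes fell. The ratio of MARS1 to MARS2 was 9.07, 7.75 and 7.47 with siALDOA and 6.90, 7.37 and 8.55 with siControl. That of CARS1 to CARS2 was 3.54, 3.28 and 3.66 against 3.70, 3.43 and 3.75. Both ratios overlapped between the groups. For threonine TARS1 fell (-0.21), while TARS2 had a log2 fold change of -0.26 and did not pass the test (adjusted p = 0.0792).

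Arginine went the other way. RARS1 was at 2.90, 2.74 and 2.87 times the count of RARS2 with siALDOA and at 2.42, 2.34 and 2.47 times with siControl, the single pair in which every siALDOA ratio was higher. Neither RARS1 nor RARS2 passed the test.

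**Figure D5:**
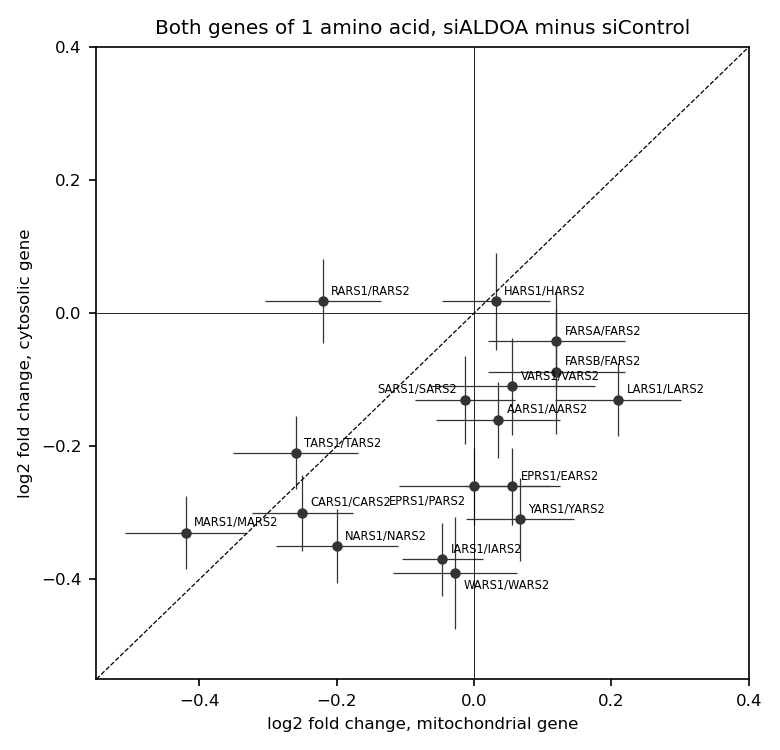
Log2 fold change of the cytosolic gene (y axis) against that of the mitochondrial gene (x axis) for each of 17 pairs, with standard errors; the dashed line marks equal change. In 14 pairs the point lies below the line, and RARS1/RARS2 lies farthest above it.

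Summed over each class, the cytosolic genes took 3210, 3320 and 3380 CPM with siALDOA and 3690, 3990 and 3910 CPM with siControl. The mitochondrial genes took 504, 494 and 485 CPM against 511, 522 and 513 CPM. The ratio of the summed counts was 6.37, 6.71 and 6.99 with siALDOA and 7.23, 7.65 and 7.63 with siControl, so the groups did not overlap. With each gene weighted equally, as the difference of the mean log2 CPM of the classes, the values were 2.35, 2.41 and 2.48 against 2.48, 2.58 and 2.55, and the groups met at 2.48. Abundant genes weigh more in the first measure. They include IARS1, MARS1 and GARS1, which fell, and AARS1 and SARS1, which did not pass the test.

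Of 19 genes that act beside the synthetases in tRNA charging and delivery, XPOT and TUFM fell and 0 rose, with a median log2 fold change of -0.091. This is 10.5% of the list, whose median level was 32 CPM, against 5.29% of all genes lower, and it rests on those 2 genes. XPOT, the exporter of mature tRNA from the nucleus, was at 252, 239 and 242 CPM with siALDOA and 322, 319 and 303 CPM with siControl (-0.37, SE 0.055, adjusted p = 0.000138). IARS1 had the same log2 fold change. TUFM, which delivers charged tRNA to the mitochondrial ribosome, had a log2 fold change of -0.24 (adjusted p = 0.0128), but its adjusted p was 0.0689 without siControl replicate 2 and 0.0914 without siControl replicate 3, and 0.259 with scaling by library totals only. GATB, GATC and QRSL1, which make mitochondrial glutaminyl-tRNA, did not pass the test, with values of 0.10, -0.027 and 0.21. Of the subunits of elongation factor 1, which takes charged tRNA to the cytosolic ribosome, 4 were tested and 0 passed in either direction, with log2 fold changes from -0.012 to 0.091.

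Of 15 genes of the pathway from uncharged tRNA to ATF4, 6 fell and 1 rose, where 5.29% of all genes and 11.7% of genes at 100 CPM or more fell. The list had a median level of 176 CPM. ATF4 mRNA, chosen after its value was seen, was at 529, 532 and 537 CPM with siALDOA and 529, 549 and 554 CPM with siControl (-0.031, SE 0.054, adjusted p = 0.784). The kinase gene EIF2AK4 was at -0.067 (adjusted p = 0.672). The ATF4 partner CEBPG fell (-0.28, adjusted p = 0.00238), as did CEBPB (-0.20, adjusted p = 0.0292), and the ATF4-induced genes TRIB3 (-0.38, adjusted p = 0.00799) and PPP1R15A (-0.25, adjusted p = 0.0321) fell with them. EIF2S1, the alpha subunit of the initiation factor that these kinases phosphorylate, was lower too (-0.28, adjusted p = 0.00922). EIF2AK2, an interferon-induced kinase, was the gene that rose (0.69, adjusted p = 3.36e-08). With scaling by library totals only, the adjusted p was 0.12 for CEBPG, 0.396 for CEBPB, 0.0561 for TRIB3, 0.129 for EIF2S1, 0.262 for PPP1R15A and 0.178 for DDIT3, so none of these kept its call. Several also lost their calls when a library was left out, with log2 fold changes that stayed negative, between -0.26 and -0.47 for TRIB3 and between -0.17 and -0.23 for CEBPB. TRIB3 lost its call without siControl replicate 2 (0.0622) or 3 (0.0526) and with DESeq2 (0.0896), and EIF2S1 without siALDOA replicate 3 (0.0626) or siControl replicate 2 (0.0669). CEBPB lost it without siALDOA replicate 3 (0.119), siControl replicate 2 (0.114) or siControl replicate 3 (0.102). PPP1R15A lost it without siALDOA replicate 1 (0.0849) or 2 (0.0901) and siControl replicate 2 (0.12) or 3 (0.183), and DDIT3 without siALDOA replicate 3 (0.15) and siControl replicate 2 (0.118) or 3 (0.173).

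Of 21 known ATF4 targets, most of them in amino acid transport and metabolism, 17 were tested, 11 fell and 0 rose. In comparison, 5.29% of all genes and 11.7% of genes at 100 CPM or more fell. The list had a median level of 257 CPM. The 11 include VLDLR, a lipoprotein receptor, and DDIT4, an inhibitor of mTORC1 signalling, which are not amino acid genes. All 17 log2 fold changes were negative, with a median of -0.34. SLC7A11, the cystine transporter, fell by 0.73 on the log2 scale (adjusted p = 1.38e-08), from 357, 360 and 379 CPM with siControl to 218, 214 and 230 CPM with siALDOA. CHAC1, which degrades glutathione, was at -0.76 (adjusted p = 7.51e-05), and PSAT1, an enzyme of serine synthesis, at -0.44 (adjusted p = 0.000154). With scaling by library totals only, 5 of the 11 kept their calls (PSAT1, SLC7A11, SLC7A1, SLC6A9 and CHAC1) and 6 lost them, namely ASNS (adjusted p = 0.0669), MTHFD2 (0.0601), SLC7A5 (0.0571), SLC3A2 (0.0589), DDIT4 (0.0626) and VLDLR (0.175). VLDLR also lost its call whichever of the 6 libraries was left out, with adjusted p from 0.0511 to 0.211. It lost it as well with limma-voom (0.0589), upper quartile scaling (0.0577) and a filter of at least 10 counts in every library (0.0504). SLC7A5 lost its call with DESeq2 (0.0545). The 9 cytosolic synthetases that fell ranged from -0.39 to -0.21. The list was written with knowledge of earlier results of these libraries and is no independent evidence of direction.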

How the data were processed

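RNA-Seq of HT29 cells with siALDOA or siControl was analysed from 6 libraries, 3 per group. Reads were mapped by the authors with tophat2 (genome build hg38), and each deposited file holds whole-number counts per gene symbol for 1 library, made with gfold and not normalized. Annotation, strand setting and treatment of multiply matched reads were not given in the sources used here. edgeR 4.0.16 in R 4.3.3 was run with filterByExpr, TMM and the quasi-likelihood F-test on all genes, with Benjamini-Hochberg adjustment and a threshold of 0.05. Dividing the absolute log2 fold change by the root of F gave the SE. A log2 CPM used a prior count of 2. CPM per kilobase used MANE Select lengths of GENCODE 44, and promoters came from RefSeq.

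Alternatives were limma-voom (limma 3.58.1), DESeq2 1.42.0, edgeR's likelihood ratio test, other scalings and filters, a replicate block, each library left out, and other memberships of the classes. Another 2 genes that match the rule are not reported here and are left out of every count and figure. Members and lists were chosen with earlier results of these data known. Called members, their partners, GARS1, KARS1, QARS1, WARS1 and the scaffold genes were named, with up to 5 more mitochondrial genes by p, and up to 6 called genes of each connected list. The other members, ATF4, EIF2AK4, DDIT3 and GATB, GATC and QRSL1 were added after their values were seen. The fit was tested on simulated data. Depth was 27277538 to 33237914 counts, and the lowest count of a member was 330. The planned comparison of protein sequences was not run. Figures used matplotlib 3.10.9.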

Additional observations from a re-analysis of the deposited data

How the results depend on the processing

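The counts of members called and the calls of 11 genes were recomputed under 16 alternatives. Of 176 values for called members, 160 kept direction and call, 16 lost the call and 0 changed sign. IARS1, NARS1, MARS1, GARS1, WARS1 and MARS2 kept their calls in all 16. With library totals only, the median of all genes was 0.075, 279 genes fell and 896 rose (810 and 668 with TMM), 5 cytosolic and 1 mitochondrial genes fell, and the class medians were -0.085 and 0.066. CARS1 (adjusted p = 0.0797), YARS1 (0.0801), EPRS1 (0.175), TARS1 (0.337) and CARS2 (0.28) then lost their calls, and GARS1 lay just under the threshold (0.05 as rounded). Signs changed with library totals only for AIMP1 (0.037), FARSA (0.033), IARS2 (0.027), KARS1 (0.055), SARS2 (0.058), WARS2 (0.043) and ATF4 (0.041), and for PARS2 with limma-voom (-0.0004), DESeq2 (-0.00042), no filter (-0.0038) and the replicate block (-0.0029).

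With each library left out in turn, 7 to 9 cytosolic and 1 mitochondrial gene, MARS2, fell. The cytosolic median ranged from -0.20 (without siControl replicate 1) to -0.12, the mitochondrial median from -0.061 (without siALDOA replicate 1) to 0.023 (without siALDOA replicate 3), and their difference from -0.21 to -0.058 (without siALDOA replicate 1). The log2 fold change changed sign in genes that were not called: AARS2 (-0.039 to 0.11), AIMP1 (-0.089 to 0.032), AIMP2 (-0.20 to 0.009), FARSA (-0.10 to 0.026), FARSB (-0.15 to 0.019), HARS1 (-0.055 to 0.069), HARS2 (-0.046 to 0.081), KARS1 (-0.05 to 0.0048), PARS2 (-0.071 to 0.061), RARS1 (-0.01 to 0.041), SARS2 (-0.053 to 0.024), VARS2 (-0.12 to 0.15) and WARS2 (-0.11 to 0.021). VARS1 gained a call without siALDOA replicate 3 (-0.23, adjusted p = 0.0439). The cause of these changes was not tested. Leaving out GARS1 and KARS1 gave a cytosolic median of -0.16, adding the scaffold genes -0.14, and keeping matched amino acids only -0.18.

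After each group's mean was subtracted, the correlations of same-numbered libraries were weak (0.0348, 0.0274 and 0.0262), each under 0.1. In 6 of 6 libraries the best correlation was with their own number. These are not 6 separate agreements, since 2 libraries share each correlation and the subtraction ties the libraries of a group together. This is at most a weak hint of pairing, from the data and not from the design. With the replicate block 10 cytosolic and 2 mitochondrial genes fell, AARS1 being the one gained (adjusted p = 0.031), and 1175 genes fell and 987 rose in all. The block changed no other call of a member.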

Other observations

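The files listed 7308 symbols at 0 in all 6 libraries. EEF1B2, which encodes a subunit of elongation factor 1, was among them, while EEF1G of the same complex had mean levels of 1460 CPM with siALDOA and 1480 CPM with siControl. The ATF4 target SESN2 and the colon marker LGALS4 were also listed at 0. No synthetase or scaffold gene was at 0 in any library.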
